A study of Mus musculus with 6 samples.

Results

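The genes described here encode the chaperones of the endoplasmic reticulum (ER), its disulfide isomerases, the sensors of the unfolded protein response and the factors of ER-associated degradation, with 2 subunits of the translocation machinery. They were taken by symbol from a list of 31 genes, and all 31 were found among the 54446 genes of the series. RNA was sequenced from Lewis cells, a wild-type lung carcinoma line of the mouse, in what the labels call a stem-like condition and in DMEM with 2% fetal bovine serum. The Control group (3 libraries) was untreated and the RT-MPs group (3 libraries) was treated for 48 h; what RT-MPs stands for is not spelled out in the labels. Nothing in the labels tells whether replicates were separate cultures, so the p-values cover only the spread among these libraries, which may be technical.

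Secreted and membrane proteins enter the ER through a translocation channel and fold there with the help of the Hsp70 chaperone BiP, the Hsp90 chaperone GRP94, the lectins calnexin and calreticulin and the protein disulfide isomerases. When unfolded proteins accumulate, the membrane sensors IRE1, ATF6 and PERK start the unfolded protein response, which raises transcription of chaperone and degradation genes and lowers protein synthesis. Proteins that fail to fold are moved back to the cytosol and degraded by the proteasome, a route built around the SEL1L and HRD1 complex.

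The deposited values are FPKM, read counts normalised for gene length and library depth, so levels can be compared between genes, though only roughly. The length is that of all annotated exons of a gene together. It exceeds the longest transcript in some genes (Hsp90b1, 4032 against 3222 bases) and not in others (P4hb, 2861 for both). The order of genes with close levels can depend on this. They imply totals of 16951007 to 21876543 reads per library, and the tested members held between 428 and 57333 reads in a library. RT-MPs replicate 3 stood apart. The FPKM of all its genes added up to 585752, and the other libraries had 296966 to 303798.5; over nuclear protein-coding genes alone the range of all libraries was 257055 to 269996. Its Pearson r with the other libraries was 0.959 to 0.969, against 0.984 to 0.993 among those, so results are given with and without it. Of the cell type markers, Vim (933 FPKM in Control) and Krt8 (168) were expressed, while epithelial Epcam, mesenchymal Cdh2 and the lung marker Nkx2-1 were listed at 0 in every library. The 5 fibroblast markers summed to 59.3 to 61.6 FPKM in Control and 59.9 to 61.1 in RT-MPs; Col1a1 and Col1a2 were near 0, and none was called, though without RT-MPs replicate 3 Dcn was called higher (0.14) and Pdgfra (−0.21) and Lum (−0.41) lower. The 5 leukocyte and macrophage markers summed to 28.9 to 33.1 FPKM in Control and 39.2 to 40.4 in RT-MPs, and 1 of the 5, the lysosomal gene Cd68, was called higher (log2 change 0.37, SE 0.070, limma adjusted p = 0.0446). The defining leukocyte marker Ptprc did not exceed 0.006 FPKM and Adgre1 was listed at 0; the part of other cells in the results was not tested.

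Within the list, Control levels were highest for the disulfide isomerase gene P4hb (597 ± 20.2 FPKM, SD, n = 3), the BiP gene Hspa5 (525 ± 10.7) and the GRP94 gene Hsp90b1 (489.8 ± 14.8). Calr (319 ± 5.45), Pdia3 (289 ± 4.39), Pdia6 (288 ± 2.48), Canx (185 ± 2.50) and Pdia4 (175 ± 1.44) followed. The sensors lay lower, with 45.6 ± 1.00 FPKM for Ern1 and 37.5 ± 0.565 for Atf6. The degradation genes lay between Derl2 (6.16 ± 0.184 FPKM) and Herpud1 (34.9 ± 1.99). Derl3, another derlin, was listed at 0 in all 6 libraries, where 3 reads would have given 0.0688 to 0.0888 FPKM, a limit that covers counting error only.

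**Figure D1:**
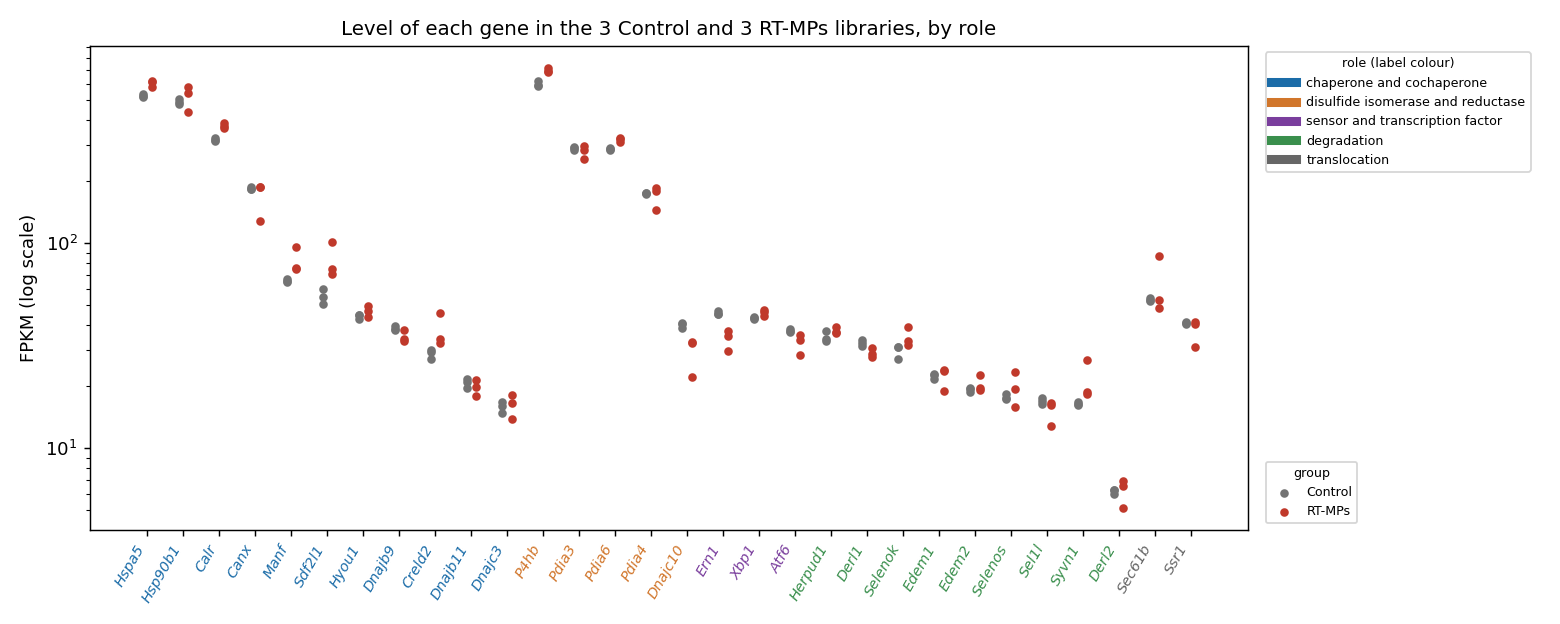
FPKM (log scale) of the 30 expressed members by role; each point is 1 library, coloured by group. P4hb, Hspa5 and Hsp90b1 lie highest and Derl2 lowest.

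The comparison asks which of these transcripts differ between treated and untreated cells. None of the 30 tested members passed limma's test at a Benjamini-Hochberg adjusted p of 0.05, where 3.99% of all 11915 tested genes were called (1.29% higher and 2.70% lower). At an unadjusted p under 0.05, 7 members were higher and 3 lower, against 6.37% and 20.9% of all tested genes (27.3% in either direction). Limma voom on recovered reads called 1 member, Ern1, lower, where 598 of all 11910 genes in that fit were called lower. In 10 members every RT-MPs library lay above every Control library, and in 5 every one lay below; over all tested genes the groups did not overlap in 40.0%, namely 9.61% higher and 30.4% lower. The median log2 change, on the log2(FPKM + 1) scale, was 0.075 for the members and −0.085 for all tested genes. In bulk RNA, fewer cells of a type and less RNA per cell cannot be told apart.

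**Figure D2:**
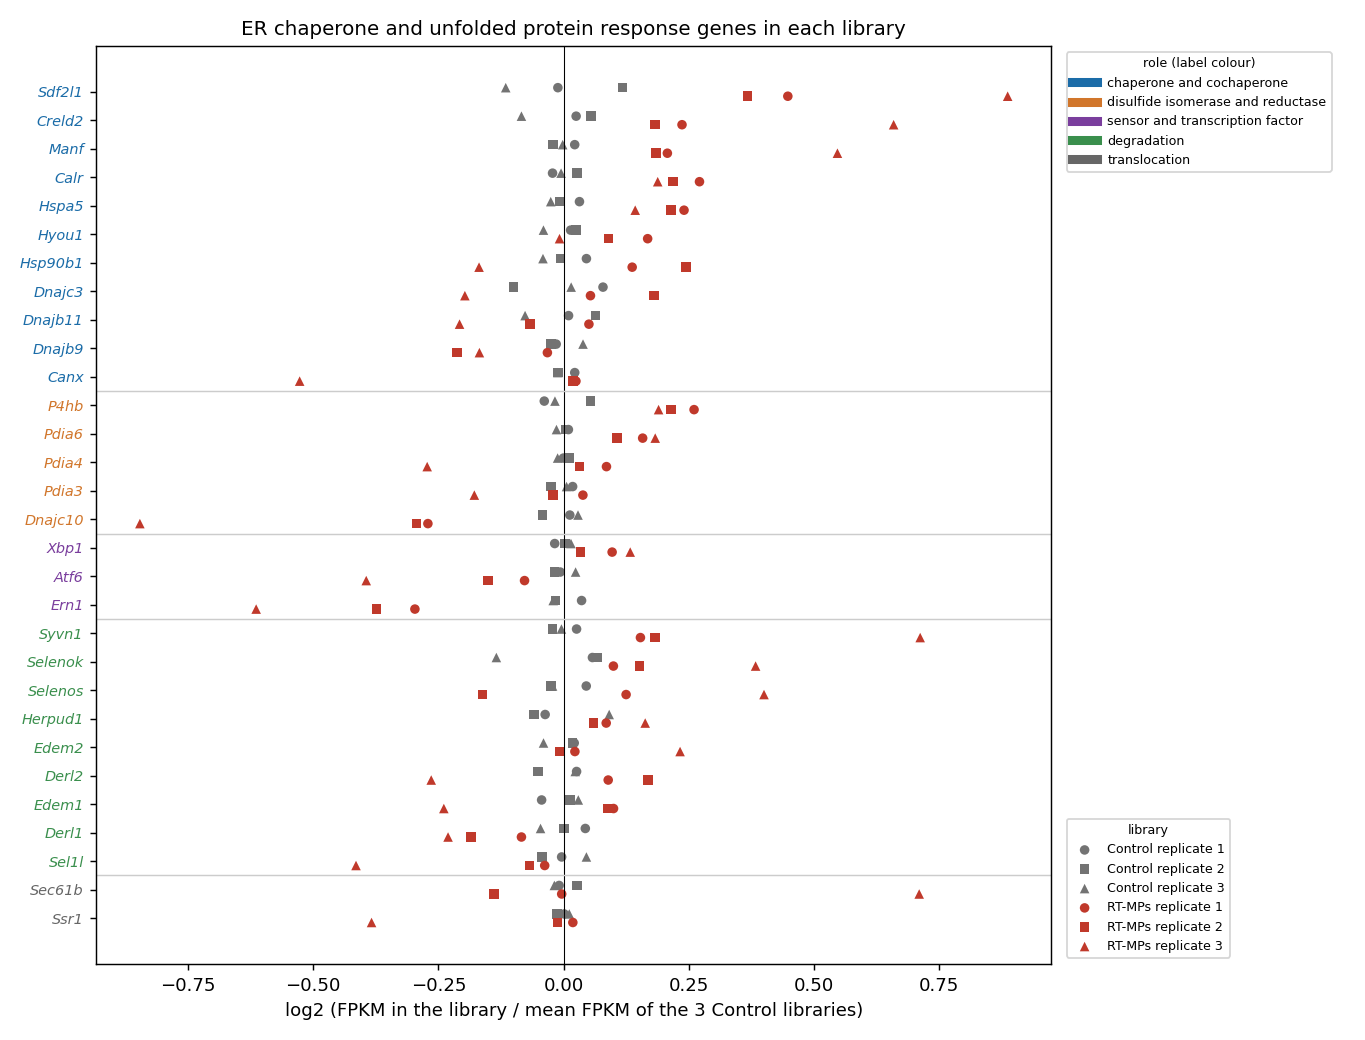
Each point is 1 library's value relative to the mean of the 3 Control libraries, on a log2 scale, for the 30 expressed members by role. RT-MPs replicate 3 lies away from RT-MPs replicates 1 and 2 for genes such as Sdf2l1, Sec61b, Syvn1, Dnajc10 and Canx.

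Among the chaperones, BiP and calreticulin transcripts had higher values in every treated library. Hspa5 encodes BiP, the main Hsp70 of the ER lumen (chromosome 2, 34771970 to 34777547, plus strand, mm10). It had 536, 522 and 515 FPKM in Control and 619.7, 609 and 579 in RT-MPs, with no overlap. The difference was 1.15-fold and missed the threshold (log2 change 0.20, SE 0.060, 95% interval 0.057 to 0.34, limma adjusted p = 0.102). Calr encodes calreticulin (chromosome 8, 84841850 to 84846934, minus strand). It had 314, 325 and 318 FPKM in Control and 385, 371 and 364 in RT-MPs, again with no overlap (log2 change 0.23, SE 0.056, 95% interval 0.091 to 0.36, limma adjusted p = 0.0707). The sign of both rests on the scale: with each library rescaled to a common sum (TPM), where the median of all genes was −0.38, Hspa5 was at −0.11 and Calr at −0.081. After quantile normalization they were at −0.0065 and 0.048. Relative to the median of all genes, Hspa5 was 0.28 higher as deposited, 0.27 in TPM and 0.0068 after quantile normalization.

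Hsp90b1 encodes GRP94, the ER form of Hsp90. It had 506, 488 and 476 FPKM in Control and 539, 580.3 and 436 in RT-MPs. RT-MPs replicates 1 and 2 lay above the controls and replicate 3 below them (log2 change 0.071, SE 0.11, limma adjusted p = 0.695). Of its exon length, 10.3% is shared with exons of the opposite-strand gene 1810014B01Rik, at 1.60 FPKM in Control. Canx encodes calnexin, the membrane-bound relative of calreticulin, and had 187, 183 and 183 FPKM in Control and 188, 187 and 128 in RT-MPs. Only RT-MPs replicate 3 stood away from the controls. Hyou1, the gene of a large Hsp70-like partner of BiP, had 44.4, 44.7 and 42.8 FPKM in Control and 49.4, 46.8 and 43.7 in RT-MPs, with overlap.

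Among the chaperones and cochaperones, Sdf2l1, Creld2 and Manf had the widest upward differences. Sdf2l1 encodes a stress-induced luminal protein (chromosome 16, 17130138 to 17132383, minus strand) and had 54.4, 59.5 and 50.6 FPKM in Control and 74.8, 70.7 and 101.4 in RT-MPs. The groups did not overlap, and this was the largest log2 change among the members (log2 change 0.56, SE 0.14, 95% interval 0.23 to 0.90, limma adjusted p = 0.0717). Manf, a secreted stress-induced protein that binds BiP, had 66.8, 64.9 and 65.7 FPKM in Control and 76.0, 74.8 and 96.1 in RT-MPs (log2 change 0.31, SE 0.10, limma adjusted p = 0.120). Creld2, an ER protein induced by stress, had 29.4, 29.99 and 27.2 FPKM in Control and 34.0, 32.7 and 45.6 in RT-MPs (log2 change 0.35, SE 0.13, limma adjusted p = 0.141). Each of these genes was highest in RT-MPs replicate 3, and without it the log2 changes were 0.40, 0.19 and 0.20. They stayed positive under the 4 other scalings, at 0.26, 0.0056 and 0.052 in TPM.

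The J-domain cochaperones, which stimulate the ATPase of BiP, differed from these. Dnajb9, a target of the IRE1 and XBP1 branch, had 38.1, 37.8 and 39.5 FPKM in Control and 37.6, 33.2 and 34.2 in RT-MPs. The treated libraries lay below the controls, RT-MPs replicate 1 by a narrow margin (log2 change −0.13, SE 0.066, limma adjusted p = 0.238). The median of all tested genes was −0.085, and with median-ratio scaling Dnajb9 was at −0.030 (limma adjusted p = 0.788). Dnajb11 had 19.7 to 21.7 FPKM in Control and 18.0 to 21.5 in RT-MPs. Dnajc3, whose product inhibits PERK, had 14.9 to 16.8 FPKM in Control and 13.9 to 18.1 in RT-MPs. Both overlapped between the groups. The 11 chaperones and cochaperones summed to 1814, 1792 and 1754 FPKM in Control and 2041, 2044 and 1859.5 in RT-MPs.

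The disulfide isomerases differed among themselves. P4hb encodes protein disulfide isomerase itself, also a subunit of prolyl 4-hydroxylase (chromosome 11, 120560298 to 120573253, minus strand), and had 581, 619.7 and 589.8 FPKM in Control and 715, 693 and 681 in RT-MPs. The groups did not overlap (log2 change 0.22, SE 0.061, limma adjusted p = 0.0861). Pdia6, an isomerase that acts with BiP, had 289.9, 289 and 285 FPKM in Control and 321, 310.0 and 327 in RT-MPs, with no overlap (log2 change 0.15, SE 0.055, limma adjusted p = 0.145). Both were negative in TPM (−0.085 and −0.16) and after quantile normalization (−0.018 and −0.030). Relative to the median of all genes, P4hb was 0.31 higher as deposited, 0.29 in TPM and −0.0043 after quantile normalization, and Pdia6 0.23, 0.22 and −0.016. Pdia3, which works with the lectin chaperones, had 284 to 293 FPKM in Control and 256 to 297 in RT-MPs. Pdia4 had 174 to 177 FPKM in Control, 186 and 179 in RT-MPs replicates 1 and 2, and 145 in replicate 3. Both overlapped between the groups.

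Dnajc10 encodes ERdj5, a reductase with a J domain that opens disulfide bonds of proteins bound for degradation (chromosome 2, 80315466 to 80354043, plus strand). It had 40.1, 38.6 and 40.6 FPKM in Control and 33.0, 32.5 and 22.1 in RT-MPs. All treated libraries lay below all controls, replicate 3 farthest (log2 change −0.46, SE 0.15, 95% interval −0.81 to −0.10, limma adjusted p = 0.118). Without RT-MPs replicate 3 it passed the test (log2 change −0.27, limma adjusted p = 0.00939), and it was negative under the 4 other scalings.

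Among the sensors, Ern1 had the lowest p of the members. It encodes IRE1 alpha, the kinase and RNase that senses unfolded proteins (chromosome 11, 106394650 to 106487852, minus strand), and had 46.8, 45.1 and 45.0 FPKM in Control and 37.1, 35.2 and 29.8 in RT-MPs. The groups did not overlap, the change was 0.749-fold, and the p lay just over the threshold (log2 change −0.42, SE 0.088, 95% interval −0.63 to −0.21, limma adjusted p = 0.0524). Ern1 was called lower with a pseudocount of 5 (adjusted p = 0.0491), among genes with a mean of at least 5 FPKM (0.0433), with voom (0.0419), with arrayWeights (0.00126) and without RT-MPs replicate 3 (0.00813), all by limma. It was not called under the other settings, where the limma adjusted p ran from 0.0530 to 0.583, the highest in TPM, and its change was negative in all of them. Atf6, the membrane-bound transcription factor cut in the Golgi when proteins misfold, had 37.4, 37.1 and 38.2 FPKM in Control and 35.6, 33.8 and 28.6 in RT-MPs. Those groups did not overlap either (log2 change −0.20, SE 0.087, limma adjusted p = 0.195), and the log2 change was −0.11 without RT-MPs replicate 3 and −0.098 with median-ratio scaling.

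Xbp1 encodes the transcription factor that IRE1 activates by removing 26 bases from its mRNA. It had 42.5, 43.1 and 43.5 FPKM in Control and 46.0, 44.0 and 47.2 in RT-MPs. The treated libraries lay above the controls by a narrow margin (log2 change 0.086, SE 0.054, 95% interval −0.043 to 0.22, limma adjusted p = 0.343), and in TPM the change was −0.22. One FPKM value per gene holds spliced and unspliced mRNA together, so splicing was not measured. The stretch that IRE1 removes is shown because the gene level does not report on it. It lies in exon 4 of 5 of transcript Xbp1-201 (GENCODE M21, mm10), and capitals mark the removed bases.
Xbp1, chr11:5524259-5524324, plus strand: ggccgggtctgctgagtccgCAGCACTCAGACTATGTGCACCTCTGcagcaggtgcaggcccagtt

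In ER-associated degradation, Syvn1 encodes HRD1, the ubiquitin ligase at the centre of the complex (chromosome 19, 6046576 to 6053712, plus strand). It had 16.8, 16.2 and 16.4 FPKM in Control and 18.3, 18.7 and 27.0 in RT-MPs. All treated libraries lay above the controls, replicate 3 farthest (log2 change 0.33, SE 0.14, limma adjusted p = 0.193). Its partner Sel1l had 17.0, 16.5 and 17.6 FPKM in Control and 16.6, 16.2 and 12.8 in RT-MPs, with overlap. Derl1, a derlin of the exit channel, had 31.5 to 33.6 FPKM in Control and 27.8 to 30.7 in RT-MPs, without overlap (log2 change −0.16, SE 0.062, limma adjusted p = 0.159). With median-ratio scaling Derl1 was at −0.058 (limma adjusted p = 0.556). Derl2 had 5.95 to 6.27 FPKM in Control and 5.13 to 6.93 in RT-MPs, with overlap.

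Herpud1, a stress-induced membrane protein of the complex, had 33.5 to 37.1 FPKM in Control and 36.3 to 39.0 in RT-MPs, with overlap. Edem1, which acts on the mannose of failed glycoproteins, had 21.8 to 22.9 FPKM in Control, 24.1 and 23.9 in RT-MPs replicates 1 and 2, and 19.03 in replicate 3. Edem2, its relative, had 18.8 to 19.6 FPKM in Control and 19.2 to 22.7 in RT-MPs. Of these, none separated the groups. Selenok, a selenoprotein of the ER membrane, had 27.2 to 31.3 FPKM in Control and 32.0 to 38.9 in RT-MPs, without overlap (log2 change 0.21, SE 0.095, limma adjusted p = 0.214), and was at 0.12 without RT-MPs replicate 3 and at −0.092 in TPM. Selenos, another one, had 17.5 to 18.3 FPKM in Control and 15.9 to 23.4 in RT-MPs, with overlap. Of the 9 tested degradation genes, 2 lay higher and 1 lower without overlap, against 9.61% and 30.4% of all tested genes, with a median log2 change of 0.079.

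The 2 translocation genes overlapped between the groups. Sec61b, a subunit of the translocation channel, had 52.4 to 54.0 FPKM in Control, 52.9 and 48.2 in RT-MPs replicates 1 and 2, and 86.8 in replicate 3. Ssr1, a subunit of the translocon-associated complex, had 40.4 to 41.1 FPKM in Control, 41.3 and 40.4 in RT-MPs replicates 1 and 2, and 31.2 in replicate 3. The same library was the highest for Sec61b and the lowest for Ssr1.

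Without RT-MPs replicate 3, 11 of the 30 members passed the threshold, 9 higher and 2 lower. Over all 11915 tested genes that fit called 21.4% (6.26% higher and 15.1% lower). The members higher, with log2 change and limma adjusted p, were Hspa5 (0.23, 0.0107), Calr (0.24, 0.00963), P4hb (0.24, 0.0138), Hsp90b1 (0.19, 0.0332), Pdia6 (0.13, 0.0336), Sdf2l1 (0.40, 0.0148), Manf (0.19, 0.0137), Creld2 (0.20, 0.0364) and Syvn1 (0.16, 0.0324). The members lower were Ern1 (−0.33, 0.00813) and Dnajc10 (−0.27, 0.00939). By role, 6 of 11 chaperones and cochaperones, 2 of 5 isomerases and reductases and 1 of 9 degradation genes were higher, while 1 reductase and 1 of 3 sensors and factors were lower. The treated group had 2 libraries in this fit. With any other library left out, no member was called, but few of the 11915 genes were. Without RT-MPs replicate 1, 35 genes were called higher and 39 lower, and without RT-MPs replicate 2, 5 and 5. Without Control replicate 2 there were 1 and 1, and without Control replicate 1 or 3 there were 0.

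**Figure D3:**
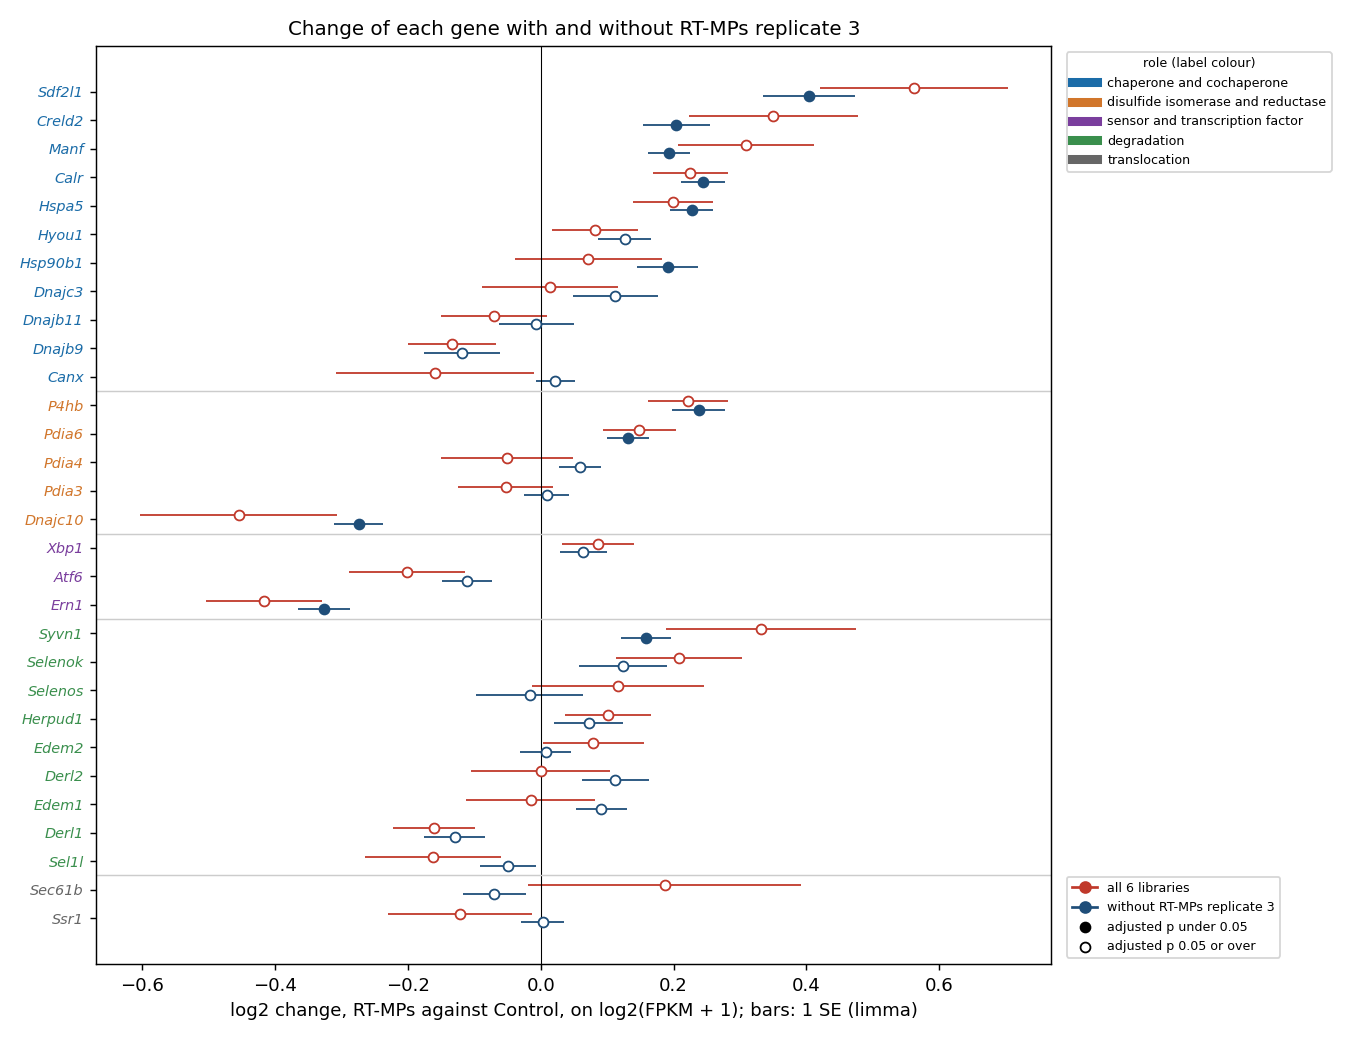
Log2 change (RT-MPs against Control, on log2(FPKM + 1)) of each of the 30 tested members with all 6 libraries and without RT-MPs replicate 3. No member passed an adjusted p of 0.05 with all libraries, and 11 did without that library.

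The deviation of RT-MPs replicate 3 ran along transcript length and base composition. Across the 30 members, its difference from the mean of RT-MPs replicates 1 and 2 had a Pearson r of −0.77 with log2 transcript length and 0.72 with GC content. These points are genes measured in the same libraries, not independent replicates. Sec61b (723 bases, 56.3% GC) lay 0.77 above, Sdf2l1 (1108 bases, 56.7% GC) 0.47 above and Syvn1 (4080 bases, 56.6% GC) 0.52 above. Canx (4281 bases, 42.2% GC) lay 0.55 below and Dnajc10 (4042 bases, 44.9% GC) 0.54 below. Over all 10293 tested protein-coding genes r was −0.53 with length and 0.55 with GC content. The median deviation was 0.16 in the 2061 genes with the shortest transcripts and −0.31 in the 2059 with the longest. Between RT-MPs replicates 1 and 2 and Control, r with length was −0.32 across the members and 0.11 across all these genes. Within Control, for replicate 3 against replicates 1 and 2, it was 0.41 across the members and −0.010 across all these genes. The part of length or composition in the members' differences was not tested.

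**Figure D4:**
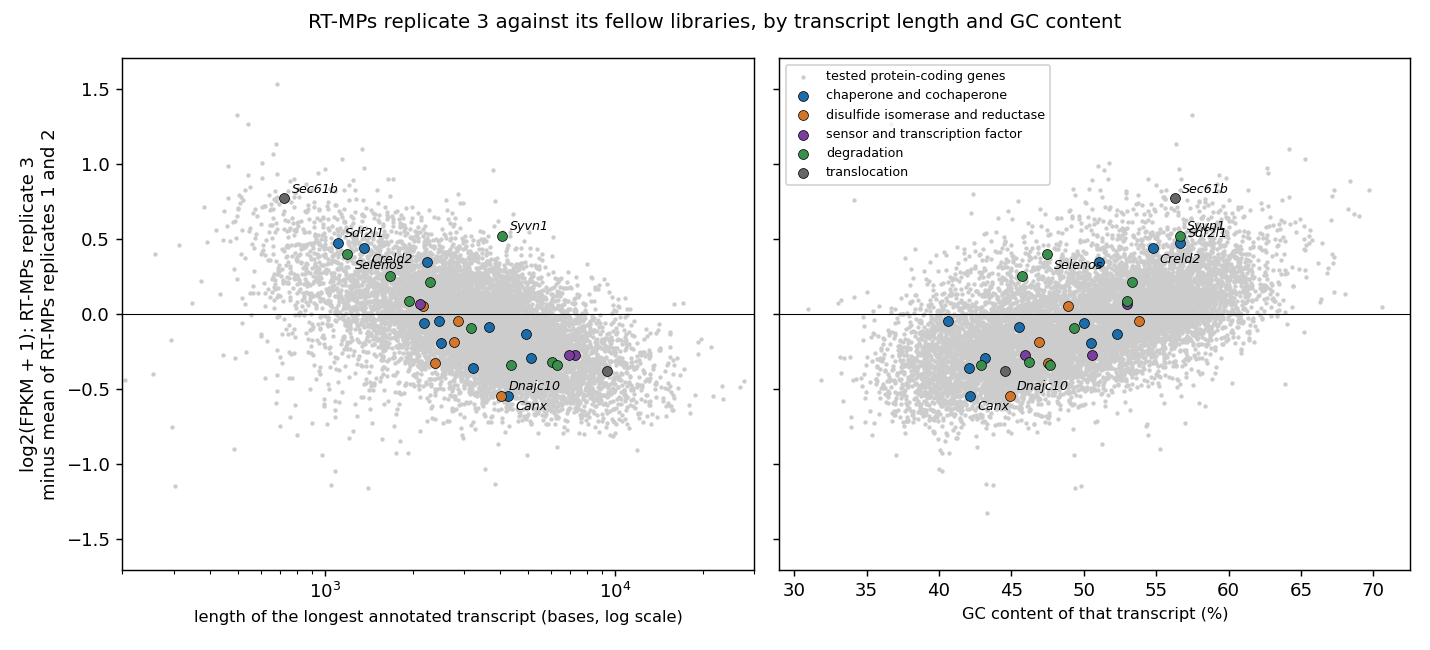
Difference of RT-MPs replicate 3 from the mean of RT-MPs replicates 1 and 2, on log2(FPKM + 1), against transcript length (left, log scale) and GC content (right), for all tested protein-coding genes and the 30 members. Sec61b and Sdf2l1 lie above 0 and Canx and Dnajc10 below; 8 genes fall outside the left frame and 1 outside the right.

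Promoter windows (RefSeq, GRCm38.p6, from 250 bases before to 50 after the start) were matched by symbol for 27 of the 31 members, all but Atf6, Manf, Hyou1 and Derl1. They are shown because the ER stress response element ERSE, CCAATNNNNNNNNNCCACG, is a known site of ATF6 and XBP1 action on chaperone genes. On either strand, ERSE was found in 9 of the 27 members and in 0.119% of all 32851 windows. ERSE-II, which is ATTGG and CCACG with 1 base between them, was found in 2 other members and in 0.0365% of windows. The UPRE core TGACGTG was found in 1 member, Hspa5, and in 2.01% of windows. Both ERSE forms contain CCACG, which alone was found in 23 members and in 32.8% of windows. A match describes the letters and is not a measured site. Each sequence is written 5′ to 3′ on the strand of its gene, with the element in capitals and 8 bases on each side; capitals that begin with CGTGG are an element on the opposite strand.
Hspa5, chr2:34772017-34772051, plus strand: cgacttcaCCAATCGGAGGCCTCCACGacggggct
Calr, chr8:84847067-84847101, minus strand: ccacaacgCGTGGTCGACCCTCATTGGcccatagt
Hsp90b1 distal, chr10:86705630-86705664, minus strand: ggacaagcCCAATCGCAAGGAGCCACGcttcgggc
Hsp90b1 proximal, chr10:86705525-86705559, minus strand: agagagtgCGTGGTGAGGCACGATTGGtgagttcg
Canx, chr11:50325792-50325826, minus strand: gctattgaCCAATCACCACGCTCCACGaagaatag
Creld2, chr15:88819512-88819546, plus strand: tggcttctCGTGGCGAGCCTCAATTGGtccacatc
Dnajc3, chr14:118937819-118937853, plus strand: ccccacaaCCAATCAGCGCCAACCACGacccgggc
Pdia6, chr12:17266483-17266517, plus strand: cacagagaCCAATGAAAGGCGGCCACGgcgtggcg
Syvn1, chr19:6046524-6046558, plus strand: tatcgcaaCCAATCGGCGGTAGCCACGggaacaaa
Derl3, chr10:75893234-75893268, plus strand: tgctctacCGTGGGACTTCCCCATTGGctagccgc
Herpud1 (ERSE-II), chr8:94386369-94386395, plus strand: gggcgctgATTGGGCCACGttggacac
Dnajb11 (ERSE-II), chr16:22857844-22857870, plus strand: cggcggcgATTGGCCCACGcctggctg

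**Figure D5:**
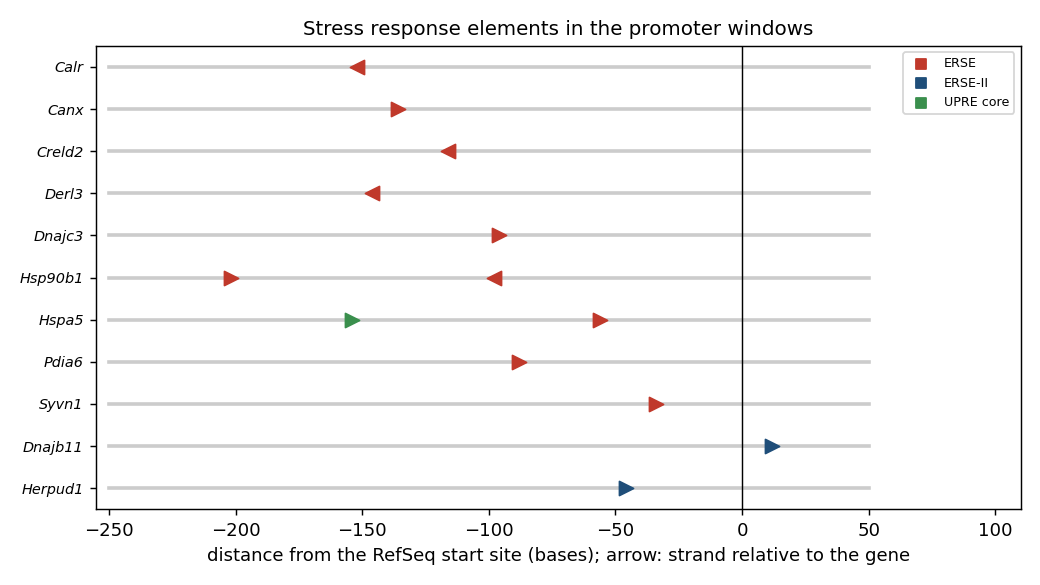
Positions of the matched elements in the promoter windows, as distance in bases from the RefSeq start site; arrows give the strand relative to the gene. The centres of the ERSE matches lie between −202 (Hsp90b1) and −34 (Syvn1), and the ERSE-II of Dnajb11 lies after the start, at 12.

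The whole Hspa5 window is given because BiP is a standard reporter of the response. Capitals mark the exact matches to the UPRE core and the ERSE, in that order, and near matches were not sought.
Hspa5 promoter, chr2:34771840-34772139, plus strand: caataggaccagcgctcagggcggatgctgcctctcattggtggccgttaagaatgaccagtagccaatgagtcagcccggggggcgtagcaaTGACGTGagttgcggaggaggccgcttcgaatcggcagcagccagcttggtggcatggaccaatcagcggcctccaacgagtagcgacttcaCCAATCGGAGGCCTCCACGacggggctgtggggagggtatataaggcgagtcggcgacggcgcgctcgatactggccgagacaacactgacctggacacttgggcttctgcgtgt

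Set beside the expression values, the 10 tested members with an ERSE or ERSE-II had a median log2 change of 0.12, and 8 were positive. The 16 members with a window and neither element had a median of −0.0076, with 8 positive. Without RT-MPs replicate 3 these medians were 0.15 and 0.0083. The 15 tested genes outside the list with one of these elements had a median of −0.097, with 6 positive. The difference between these groups was not tested. With all 6 libraries, 3947 of all 11915 tested genes were positive. The counts of positive genes rest on the scale. In TPM, where the median of all genes was −0.38, only Creld2 (0.052) and Syvn1 (0.041) of the 10 were positive. Relative to the median of all genes, Hspa5 was at 0.28 as deposited and 0.27 in TPM. Dnajb11 was at 0.015 and 0.0064, and Canx at −0.074 and −0.088. Of all 30 tested members, 22 lay above that median as deposited, 22 in TPM and 16 after quantile normalization. After quantile normalization Hspa5 (−0.0065), Hsp90b1 (−0.091), Pdia6 (−0.030), Canx (−0.23) and Dnajb11 (−0.018) were negative. Calr (0.048), Creld2 (0.37), Dnajc3 (0.071), Syvn1 (0.38) and Herpud1 (0.12) were positive on that scale.

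A further 84 genes of ER folding, degradation, translocation and stress signalling were read from the same fit. All were tested, with 1 called higher and 1 lower, where 1.29% and 2.70% of all tested genes were called. Ero1l (Ero1a), the oxidase that reloads protein disulfide isomerase, went from 568 ± 36.0 to 852 ± 117 FPKM (log2 change 0.57, SE 0.11, limma adjusted p = 0.0470). Chac1, a glutathione-degrading enzyme gene downstream of ATF4, went from 8.64 ± 1.47 to 3.62 ± 1.26 FPKM (log2 change −1.08, SE 0.20, limma adjusted p = 0.0430). Both calls were lost when any library other than RT-MPs replicate 3 was left out, with limma adjusted p from 0.0969 to 0.230 for Ero1l and from 0.0920 to 0.216 for Chac1. Ero1l was also lost in TPM (log2 change 0.27, limma adjusted p = 0.601), after quantile normalization (0.42, 0.271), with a common sum over protein-coding genes (0.56, 0.0629) and with trend=FALSE (0.57, 0.0524). Chac1 was lost with median-ratio scaling (−0.99, 0.0629) and after quantile normalization (−0.97, 0.0664). The 84 genes had a median log2 change of −0.077.

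PERK itself, encoded by Eif2ak3, had 8.68 ± 0.333 FPKM in Control and 8.31 ± 0.564 in RT-MPs, with overlap (log2 change −0.058, SE 0.070, limma adjusted p = 0.612). Downstream of it, the transcription factor gene Atf4 had 238 ± 9.22 and 205 ± 17.9 FPKM (log2 change −0.22, SE 0.079, limma adjusted p = 0.143). Ppp1r15a, a phosphatase subunit that restores protein synthesis, had 23.3 ± 1.27 and 19.1 ± 2.78 FPKM (log2 change −0.28, SE 0.11, limma adjusted p = 0.162). Both lay lower without overlap, and both were called lower without RT-MPs replicate 3 (−0.28 with limma adjusted p = 0.0184 for Atf4, −0.37 and 0.0359 for Ppp1r15a). After quantile normalization Atf4 was also called lower (−0.36, limma adjusted p = 0.0418), while Ppp1r15a was not (−0.24, 0.271). With median-ratio scaling neither was called (Atf4 −0.11, limma adjusted p = 0.486, and Ppp1r15a −0.18, 0.398). Nor was either called in TPM (limma adjusted p = 0.583 for each). Relative to the median of all genes, Atf4 was at −0.13 and Ppp1r15a at −0.19 as deposited. Ddit3, the CHOP gene, had 50.5 ± 1.80 and 52.4 ± 3.12 FPKM, with overlap (log2 change 0.050, SE 0.065, limma adjusted p = 0.641). The 10 genes grouped here as the PERK arm do not include Eif2ak3 itself. They were Eif2s1, Atf4, Ddit3, Ppp1r15a, Ppp1r15b, Trib3, Chac1, Nupr1, Atf3 and Asns. Of these 10 genes, 7 lay lower and 1 higher without overlap (over all tested genes 30.4% and 9.61%). Their median log2 change was −0.25, and the activity of PERK was not measured. Without RT-MPs replicate 3, 6 of the 10 were called lower and 1 higher, and of all 84 genes 15 lower and 3 higher, where 15.1% of all tested genes were called lower and 6.26% higher. Among those 15 were Mbtps1 (−0.22) and Mbtps2 (−0.20), the proteases that cut ATF6, chosen for mention after their values were seen. With all 6 libraries neither protease gene was called (limma adjusted p = 0.0782 and 0.175). Others of the 15 had wider changes, such as Trib3 (−0.46) and Cnpy2 (−0.34). The 3 called higher were Ero1l (0.69), Atf3 (0.18) and Edem3 (0.15).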

How the data were processed

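HISAT2 and the build mm10 are named in the submitters' processing notes; for the counting tool, annotation and strand setting, the sources used here give none. The authors deposited 1 table of FPKM per library, and sample titles gave the groups. The kit was a stranded mRNA kit, per the labels' protocols. GENCODE M21 gene models (mm10) covered 54409 of the 54446 genes. At the totals used as depth, FPKM times exon length came out whole to within 0.1 of a read for 98.0% to 98.2% of low values.

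The two-sided test was limma 3.58.1 in R 4.3.3 (eBayes, trend=TRUE) on log2(FPKM + 1) over the 11915 genes with a mean of at least 1 FPKM, adjusted over all of them by Benjamini-Hochberg; this scale understates changes of low genes. The fit was also run on simulated reads without a deviating library, which is not the setting of these data. Exact permutation of 3 against 3 cannot reach 0.05 and was not used. The text names every member, any other ER gene past the threshold without overlap (up to 10, by size), and Ero1l, Eif2ak3, Atf4, Ddit3 and Ppp1r15a. Outside that rule, the genes of the PERK arm are listed. Mbtps1, Mbtps2 and some other ER genes called without RT-MPs replicate 3 were added after their values were seen. Members and lists were chosen with earlier results of these data known. Python 3.11.15 and pandas 2.3.3 read the tables.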

Additional observations from a re-analysis of the deposited data

How the results depend on the processing

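Other pseudocounts and filters, other scalings, other variance settings, voom on recovered reads, the replicate number as a term and leaving out each library were tried. No member was called in the reported fit. A pseudocount of 5, a mean of at least 5 FPKM and voom each called 1 member lower (Ern1 each time). Over all tested genes these settings called 365 of 11915, 321 of 7569 and 598 of 11910 lower, in that order. Median-ratio scaling called 1 higher (Calr). With arrayWeights 11 members were called higher and 2 lower, where 1281 and 3295 of all 11915 tested genes were. With 1 library left out, 0 to 9 members were called higher and 0 to 2 lower, the highest counts coming without RT-MPs replicate 3. Over all genes, the 476 calls (154 higher, 322 lower) became 26 with no filter, 46 in TPM, 799 with voom, 4576 with arrayWeights and 0 to 2548 with 1 library left out; median-ratio scaling split 377 calls into 255 higher and 122 lower, and quantile normalization 347 into 194 and 153. Among the other ER genes, the count of 2 calls (Ero1l and Chac1) became 0 with no filter, 1 with median-ratio scaling (Ero1l), 1 in TPM (Chac1), 1 with trend=FALSE (Chac1), 1 after quantile normalization (Atf4, with both others lost), 24 with arrayWeights and 0 to 18 with 1 library left out. As replicate numbers are shared between the groups, a fit with the replicate block was made: it called 0 genes in all and 0 of the other ER genes, with 2620 genes and 7 members at an unadjusted p under 0.05. The deviations of same-numbered libraries from their group means had correlations of 0.096, −0.082 and −0.029. With 3 libraries in each group, such values cannot decide whether the numbers mark pairs.

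Log2 changes turned sign in TPM to −0.11 for Hspa5, −0.24 for Hsp90b1, −0.22 for Hyou1, −0.081 for Calr, −0.28 for Dnajc3, −0.085 for P4hb, −0.16 for Pdia6, −0.22 for Xbp1, −0.20 for Herpud1, −0.22 for Edem2, −0.28 for Derl2, −0.18 for Selenos, −0.092 for Selenok, −0.12 for Sec61b and −0.25 for Ddit3; after quantile normalization to −0.0065 for Hspa5, −0.091 for Hsp90b1, −0.018 for P4hb, −0.030 for Pdia6, 0.034 for Edem1 and 0.029 for Eif2ak3. They also turned with median-ratio scaling to 0.031 for Dnajb11, 0.053 for Pdia3, 0.055 for Pdia4, 0.086 for Edem1 and 0.037 for Eif2ak3. They turned with a common sum over protein-coding genes to −0.0033 for Dnajc3 and −0.015 for Derl2. They turned with arrayWeights to 0.016 for Canx, 0.045 for Dnajb11, 0.026 for Pdia3, 0.076 for Pdia4, 0.089 for Edem1, −0.0040 for Sec61b, 0.0071 for Ssr1 and 0.028 for Eif2ak3. They turned with a pseudocount of 0.1 to −0.0014 for Derl2. With 1 library left out, the log2 changes lay as follows: Canx between −0.25 and 0.022, Derl2 between −0.073 and 0.11, Dnajc3 between −0.065 and 0.11, Edem1 between −0.071 and 0.091, Hsp90b1 between −0.015 and 0.19, Pdia3 between −0.099 and 0.0091, Pdia4 between −0.12 and 0.059, Sec61b between −0.070 and 0.35, Selenos between −0.017 and 0.25 and Ssr1 between −0.19 and 0.0032. The cause of these shifts was not tested, except that TPM divides by a sum that was larger in RT-MPs replicate 3 and so moved the median of all genes from −0.085 to −0.38. Relative to that median, Calr was 0.31 higher as deposited and 0.30 in TPM, and Xbp1 0.17 and 0.16. Relative to the median of all tested genes, the member median was 0.16 higher as deposited, 0.18 with median-ratio scaling, 0.15 in TPM and 0.027 after quantile normalization.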
